A study of Homo sapiens with 30 samples.

Results

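The genes of the unfolded protein response and of protein folding in the endoplasmic reticulum (ER) were followed across 2 prostate cancer cell lines and 10 treatment groups by RNA-seq. The set held 36 genes, taken by symbol as a pathway list that was drawn up with earlier results of these data known, of the 23710 gene symbols in the count tables. They were divided by role into 12 chaperones and co-chaperones, 6 disulfide isomerases and oxidases, 6 stress sensors and membrane-bound transcription factors, 5 genes of ER-associated degradation, and 7 genes of translocation, vesicle transport and retrieval. V16D cells are a castration-resistant line derived from LNCaP, an androgen-responsive prostate cancer line, and MR49F cells are its enzalutamide-resistant derivative, so that each genotype was represented by 1 cell line. In full serum, V16D and MR49F cells each received vehicle or 10 µM enzalutamide, an antiandrogen, for 24 hours. MR49F cells were maintained by the authors in medium with 10 µM enzalutamide, which is not stated for V16D cells. MR49F vehicle cells had thus been exposed to the drug before, and when it was removed is not stated in the sources used here. In charcoal-stripped serum, from which steroids have been depleted, MR49F cells were kept for 72 hours and then received vehicle, 10 µM enzalutamide, 1 nM dihydrotestosterone (DHT, a natural androgen), 500 nM JQ1 (an inhibitor of the BET bromodomain proteins), DHT with JQ1, or enzalutamide with JQ1 for 24 hours. For the groups with JQ1 the treatment time is not certain, because the published legend of that RNA-seq refers to a treatment of 3 days. That legend also covers DHT and enzalutamide without JQ1, for which another published legend gives 24 hours. If the times differed, JQ1 and treatment time cannot be told apart in any comparison of groups with and without JQ1. Each of the 10 groups had 3 samples, 30 in all, from cells plated in triplicate with 2 wells combined per sample, so that the p-values below measure the spread between these samples, which may be technical.

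Secreted and membrane proteins fold in the ER, where the chaperone BiP, encoded by HSPA5, binds unfolded chains, and where protein disulfide isomerases form and rearrange disulfide bonds. When unfolded protein accumulates, the sensors IRE1 (ERN1), PERK (EIF2AK3) and ATF6 are released from BiP, IRE1 splices the mRNA of the transcription factor XBP1, ATF6 is cut free in the Golgi, and PERK phosphorylates the translation factor eIF2α. The released factors bind short promoter elements and raise the chaperones, the degradation machinery and the secretory machinery, and secretory epithelium such as that of the prostate carries a high load of secreted protein.

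The promoter elements of this response are shown first, because they are a feature of the members that does not depend on the expression values, although genes are known as targets of this response partly through such elements. RefSeq promoter windows (GRCh38.p14, 250 bases before to 50 bases after each start) were found for 33 of the 36 genes, all but PDIA3, SEC24D and KDELR2, and the members were set beside 27305 genes with such windows. The ER stress response element (ERSE; CCAAT, 9 bases, then CCACG, either strand) lay in the windows of 8 of 33 members (24.2%) and of 25 of all genes (0.0916%). Those 8 members were CALR, CANX, CRELD2, ERO1LB, HSP90B1, HSPA5, PDIA6 and XBP1. In the lines that follow, each sequence is written 5′ to 3′ on the strand of its gene, and capitals mark the element and the spacer inside it, in the orientation in which it stands.
HSPA5 (chr9:125241381-125241419, minus strand): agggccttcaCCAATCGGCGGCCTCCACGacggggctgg
XBP1 (chr22:28800593-28800631, minus strand): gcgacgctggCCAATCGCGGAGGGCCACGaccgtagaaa
PDIA6 (chr2:10812843-10812881, minus strand): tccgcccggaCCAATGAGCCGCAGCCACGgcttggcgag
CANX (chr5:179698768-179698806, plus strand): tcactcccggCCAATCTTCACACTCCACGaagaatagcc
CALR (chr19:12938374-12938412, plus strand): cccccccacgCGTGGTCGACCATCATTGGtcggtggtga
CRELD2 (chr22:49918544-49918582, plus strand): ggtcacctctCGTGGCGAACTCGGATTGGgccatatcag
CALR and CRELD2 carry the element in the reverse orientation. The outer 5-base blocks were fixed by the search, and the spacer differed from gene to gene.

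The second element, ERSE-II (ATTGG, 1 base, then CCACG), was present in the windows of 3 members (9.09%), HERPUD1, HYOU1 and SDF2L1, against 19 of all genes (0.0696%). The unfolded protein response element (UPRE, TGACGTGG), which overlaps the CCACG block of the other elements on the opposite strand, was present for 4 members (12.1%), DNAJC10, HYOU1, KDELR3 and SSR3, against 253 genes (0.927%). The next lines show 5 of these windows, with the element in capitals.
HERPUD1 (chr16:56932015-56932045, plus strand): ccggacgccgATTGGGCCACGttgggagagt
SDF2L1 (chr22:21642104-21642134, plus strand): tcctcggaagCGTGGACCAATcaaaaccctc
DNAJC10 (chr2:182716122-182716149, plus strand): gcgcacaccgCCACGTCAacctaaacct
SSR3 (chr3:156554149-156554176, minus strand): ctgataacagCCACGTCAgcaaggaaac
KDELR3 (chr22:38468040-38468067, plus strand): gccgccctggCCACGTCAccgcccggcc
A match is a run of letters in a window and was not tested as a binding site.

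Libraries from full serum held 13170504 to 21154962 reads on genes (73.0% to 77.8% of uniquely placed reads), and those from stripped serum held 982130 to 1813262 (5.13% to 7.66%), so that stripped serum counts carry a larger counting error. The strand on which the reads were counted is not given in the sources used here, and the stripped serum counts may have been made on the strand opposite to the transcripts, in which case a gene's count would hold only the few of its reads that were placed on the wrong strand, with reads of any gene lying opposite. FPKM, read numbers scaled to transcript length and library size that were made by a separate program and summed here over the transcripts of a gene, are therefore given beside the counts in stripped serum. Among genes whose counts, scaled to library size as CPM, were over 50, 102 had an FPKM under 1 in stripped serum MR49F vehicle cells, 44 of them sharing at least 100 exon bases with a gene of at least 10 FPKM on the opposite strand, and in full serum 1 gene did so and 0 shared such bases. The member PDIA6 is an example: ATP6V1C2, which overlaps it on the opposite strand by 1033 exon bases, had 9, 23 and 9 reads in full serum and 1986, 1865 and 1825 in stripped serum, while PDIA6 itself had 338, 273 and 248 reads in stripped serum at an FPKM of 102, 109 and 108. DNAJB11, PDIA3, CANX, SYVN1, CRELD2, CREB3L4, SEC31A and KDELR3 also share exon bases with an opposite-strand gene. Whether the strand was set the other way in stripped serum was not tested, so that each stripped serum value by counts is to be read with the FPKM value beside it, and the full and stripped serum libraries are separate experiments, so that serum and experiment cannot be told apart. KLK3, which encodes prostate-specific antigen and is the standard androgen-induced gene, stood at 283 ± 6.14 FPKM in stripped serum vehicle cells, 1258 ± 61.0 with DHT and 799.7 ± 8.90 with enzalutamide (SD, n = 3). FOLH1, the gene of prostate-specific membrane antigen and a luminal marker, ranged from 101 to 439 FPKM over the 30 samples, the summed fibroblast markers from 0.711 to 2.68 and the summed leukocyte markers from 0 to 0.0884. In full serum, MR49F vehicle replicate 1 stood apart from its group for many members, for instance at 55.6 FPKM of XBP1 against 69.0 and 73.7.

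In order to compare members with each other, their levels were read per length, as FPKM. In MR49F vehicle cells the members spanned from KDELR3, a retrieval receptor, at 1.19 ± 0.121 FPKM in full serum, to the lectin chaperone calreticulin (CALR) at 714 ± 80.6 (SD, n = 3). The chaperones and isomerases held the top of the order. In stripped serum vehicle cells CALR stood at 489 ± 21.9 FPKM, P4HB, the founding protein disulfide isomerase, at 348 ± 9.73, HSP90B1, the ER paralog of the HSP90 chaperones, at 333 ± 14.4 and PDIA3 at 249 ± 13.9. P4HB and HSP90B1 did not differ beyond their spread there, with 338, 357 and 349 FPKM for P4HB and 317, 340.4 and 343 for HSP90B1. The 3 stress sensors lay near the bottom, ERN1 at 3.62 ± 0.0903, ATF6 at 7.12 ± 0.0622 and EIF2AK3 at 9.46 ± 0.0878 FPKM. XBP1 mRNA was at 52.4 ± 2.56 FPKM. These totals do not separate its spliced from its unspliced form.

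**Figure D1:**
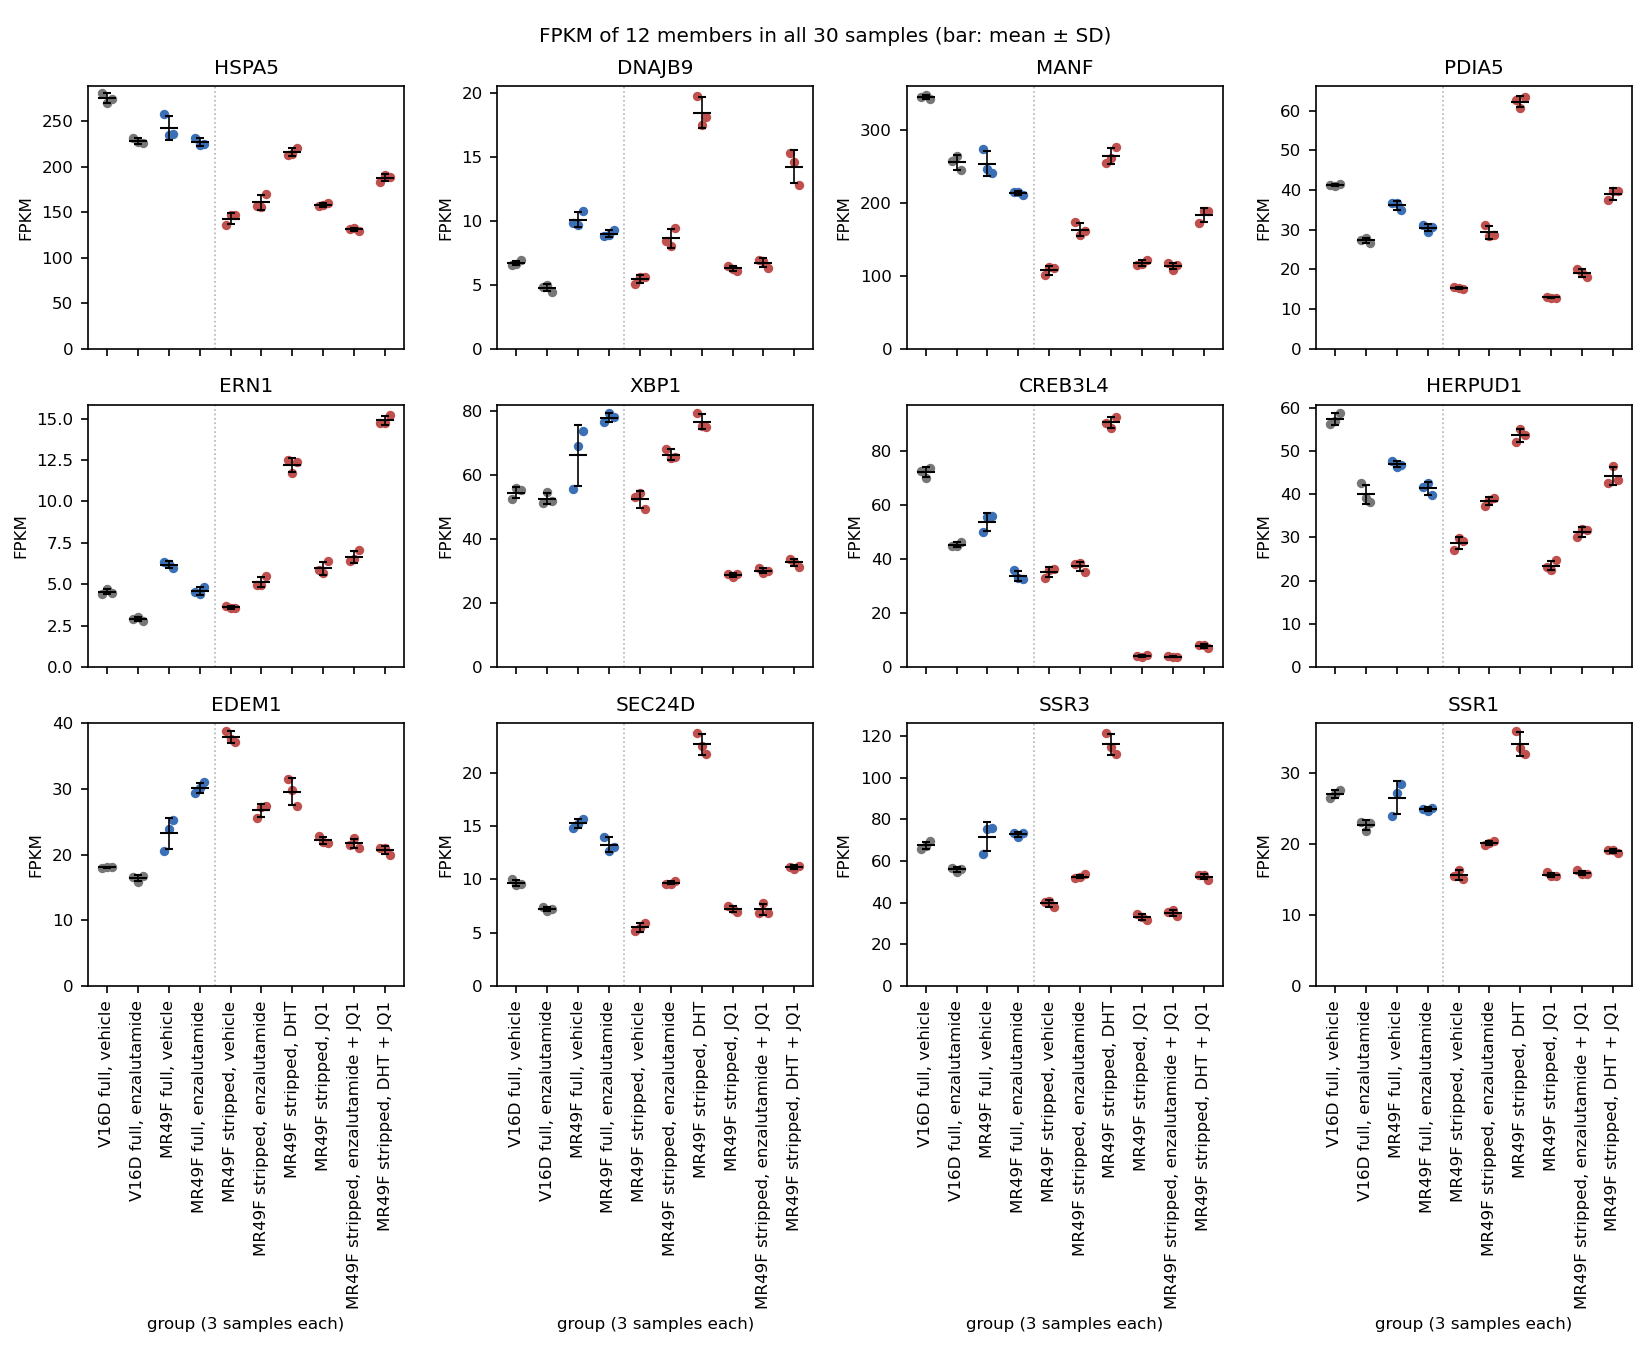
FPKM (vertical axes, from 0) of 12 members in each of the 30 samples, 1 panel per gene, with the 10 groups on the horizontal axis, a point for each sample and a bar for the mean ± SD of 3 samples. Grey points are V16D and blue points MR49F cells in full serum, and red points are MR49F cells in stripped serum. DNAJB9 rises from 5.08 to 5.64 FPKM in stripped serum vehicle cells to 17.5 to 19.8 with DHT, and CREB3L4 lies below 9 FPKM in all 9 samples with JQ1.

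DHT, compared with vehicle in stripped serum, addressed how a natural androgen acts on these genes in enzalutamide-resistant cells. Most of the module rose: of 35 members that could be tested by counts, 29 were higher, 1 was lower and 5 did not pass, where 37.5% of all 11004 genes tested were called, 19.4% higher and 18.1% lower (edgeR, adjusted p under 0.05). The median log2 fold change was 0.83 over the members and -0.012 over all genes. By FPKM 31 of 36 members were higher and 2 lower, where 72.1% of all genes were called, 28.9% higher and 43.2% lower (limma on log2(FPKM + 1)). In these bulk samples more RNA per cell and a larger share of the cells carrying it cannot be told apart.

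All 12 chaperones and co-chaperones rose with DHT, with log2 fold changes from 0.42 for CALR to 2.30 for DNAJB9. DNAJB9, the J-domain co-chaperone that recruits BiP to IRE1 and to misfolded chains, had 5.08, 5.64 and 5.59 FPKM in the 3 vehicle samples and 19.8, 17.5 and 18.1 in the 3 DHT samples. Every DHT sample was more than 3 times as high as every vehicle sample, although the counts rested on 11 reads in each vehicle library. The log2 fold change by counts was 2.30 ± 0.24 (SE, edgeR, adjusted p = 2.76e-08). DNAJC10, an ER reductase with a J domain, had 10.1, 10.6 and 10.8 FPKM with vehicle and 30.4, 29.3 and 28.9 with DHT (2.83-fold by counts, log2 fold change 1.50 ± 0.13, edgeR, adjusted p = 1.84e-09). MANF, an ER-resident survival factor that is secreted under stress, had 101, 112 and 111 FPKM with vehicle and 256, 262 and 277 with DHT (2.46-fold by counts, log2 fold change 1.30 ± 0.12, edgeR, adjusted p = 2.01e-09). Vehicle and DHT samples were fully apart for all 3 genes, with the DHT samples the higher. HSPA5 itself rose less, from 143 ± 6.17 to 216 ± 4.10 FPKM (1.63-fold by counts, edgeR, adjusted p = 2.74e-07), and HYOU1, the nucleotide exchange factor that works with BiP, rose 2.002-fold (edgeR, adjusted p = 1.18e-09).

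The remaining chaperones rose by less than the 3 named first. HSP90B1 went from 333 ± 14.4 to 554 ± 4.60 FPKM, DNAJC3 from 8.80 ± 0.228 to 17.2 ± 1.003, DNAJB11 from 27.7 ± 2.09 to 42.4 ± 1.88, and SDF2L1, a partner of the J-domain proteins, from 23.1 ± 1.70 to 39.3 ± 2.28 (SD, n = 3). The lectin chaperones, which hold glycoproteins during folding, moved unequally, with CANX going from 143 ± 2.90 to 217 ± 2.41 FPKM and CALR from 489 ± 21.9 to 617 ± 29.1. CRELD2, a secreted ER stress protein, went from 39.02 ± 2.64 to 51.7 ± 2.80 FPKM. Read against the promoter elements printed above, 7 of the 8 members with an ERSE rose by counts, all but ERO1LB, with log2 fold changes of 0.42 for CALR, 0.52 for CRELD2, 0.57 for XBP1, 0.71 for HSPA5, 0.73 for PDIA6, 0.75 for CANX and 0.83 for HSP90B1. The members with a UPRE that could be tested rose by 1.002 (HYOU1), 1.50 (DNAJC10) and 1.72 (SSR3), and those with an ERSE-II rose by 0.88 (SDF2L1), 1.002 (HYOU1) and 1.21 (HERPUD1). By counts, members without any of these elements in the window included both EDEM1, at -0.32, and DNAJB9, at 2.30. ERO1LB, which has an ERSE, did not pass by counts and was lower by FPKM, as given below.

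Of the 6 disulfide enzymes, 5 rose with DHT. PDIA5, a member of the isomerase family that acts on ATF6, had 15.6, 15.4 and 14.99 FPKM with vehicle and 62.7, 60.8 and 63.5 with DHT. All 3 DHT samples lay far above the vehicle samples, and its log2 fold change by counts was 2.19 ± 0.14 (edgeR, adjusted p = 2.55e-12). PDIA4 had 90.3, 88.5 and 92.6 FPKM with vehicle and 168, 178 and 186 with DHT (log2 fold change 0.98 ± 0.086, edgeR, adjusted p = 1.41e-09). PDIA6, which attenuates IRE1 signalling, had 102, 109 and 108 FPKM with vehicle and 191, 179 and 188 with DHT (log2 fold change 0.73 ± 0.095, edgeR, adjusted p = 1.17e-06). The groups were apart for both genes. ERO1LB, the oxidase that recharges the isomerases, had the opposite sign, with 3.37, 3.60 and 3.17 FPKM in vehicle samples and 2.26, 2.01 and 2.36 in DHT samples. It passed by FPKM (difference -0.45 ± 0.063 in log2(FPKM + 1), limma, adjusted p = 0.000237) and not by counts (edgeR, adjusted p = 0.25). The abundant isomerases P4HB and PDIA3 went from 348 ± 9.73 to 517 ± 19.6 and from 249 ± 13.9 to 374 ± 15.7 FPKM (edgeR on counts, adjusted p = 9.42e-08 and 3.20e-07).

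Among the sensors and transcription factors, 4 of 6 rose. ERN1 had 3.72, 3.57 and 3.56 FPKM with vehicle and 12.5, 11.7 and 12.4 with DHT, and every DHT sample was more than 3 times every vehicle sample (log2 fold change 2.004 ± 0.17, edgeR, adjusted p = 6.24e-10). CREB3L4, a membrane-bound transcription factor that is enriched in prostate, had 33.2, 36.02 and 36.6 FPKM with vehicle and 90.5, 88.8 and 92.9 with DHT (log2 fold change 1.38 ± 0.12, edgeR, adjusted p = 2.01e-09). CREB3L2, its relative that drives genes of the early secretory pathway, had 11.01, 10.5 and 10.9 FPKM with vehicle and 22.6, 22.8 and 22.8 with DHT (log2 fold change 1.01 ± 0.12, edgeR, adjusted p = 1.87e-07). For both factors the groups were well apart, with the 3 DHT samples of CREB3L2 nearly identical. XBP1 rose 1.49-fold (edgeR, adjusted p = 0.000194). The other 2 sensors behaved differently from ERN1 in the counts. ATF6 was at 7.12 ± 0.0622 FPKM with vehicle and 7.44 ± 0.0980 with DHT and passed neither by counts (edgeR, adjusted p = 0.556) nor by FPKM (limma, adjusted p = 0.249), and EIF2AK3, from 9.46 ± 0.0878 to 12.2 ± 0.290 FPKM, passed by FPKM (limma, adjusted p = 6.79e-05) and not by counts (edgeR, adjusted p = 0.0976).

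ER-associated degradation was the group with the most mixed signs, with 2 of 5 genes higher, 1 lower and 2 not past the test. HERPUD1, a scaffold of the retrotranslocation complex, had 27.1, 29.96 and 29.1 FPKM with vehicle and 52.1, 55.02 and 53.7 with DHT (log2 fold change 1.21 ± 0.13, edgeR, adjusted p = 6.90e-08). SYVN1, the ubiquitin ligase of that complex, had 18.4, 17.2 and 17.4 FPKM with vehicle and 27.2, 27.8 and 28.2 with DHT (log2 fold change 0.70 ± 0.13, edgeR, adjusted p = 0.00012). Its exons share 158 bases with those of MRPL49 on the opposite strand, which stood at 47.4 FPKM in vehicle cells against 17.7 for SYVN1. EDEM1, the lectin that hands misfolded glycoproteins to the complex, moved the other way, with 38.9, 37.7 and 37.1 FPKM in vehicle samples and 31.5, 29.9 and 27.4 in DHT samples. All 3 DHT samples lay below all 3 vehicle samples (log2 fold change -0.32 ± 0.11, edgeR, adjusted p = 0.0233, and limma on FPKM, adjusted p = 0.000377). Its call by counts was lost with DESeq2 and without the filter on low counts. SEL1L, the adaptor of SYVN1, had 18.4, 18.3 and 17.9 FPKM with vehicle and 20, 19.4 and 18.9 with DHT and did not pass (edgeR, adjusted p = 0.562).

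All 6 of the testable genes of translocation and transport rose. SEC24D, the cargo-binding subunit of the COPII coat, had 5.12, 5.45 and 5.90 FPKM with vehicle and 23.7, 22.5 and 21.7 with DHT (log2 fold change 1.87 ± 0.18, edgeR, adjusted p = 5.16e-09). SSR3, a subunit of the translocon-associated complex, had 40.4, 40.7 and 37.7 FPKM with vehicle and 122, 115 and 112 with DHT (log2 fold change 1.72 ± 0.12, edgeR, adjusted p = 1.01e-11). SSR1, another subunit of that complex, had 15.5, 16.4 and 15.01 FPKM with vehicle and 35.96, 33.5 and 32.6 with DHT (log2 fold change 1.11 ± 0.12, edgeR, adjusted p = 5.55e-08). The DHT samples of all 3 genes lay above the vehicle samples without overlap. SEC31A, a subunit of the outer COPII coat, rose least (1.24-fold, edgeR, adjusted p = 0.0149). KDELR3 had 11, 13 and 7 reads in the vehicle libraries, was left out of the count test, and stood at 2.05, 2.86 and 1.96 FPKM with vehicle and 1.96, 2.15 and 2.16 with DHT (limma, adjusted p = 0.478). KDELR2, the other retrieval receptor of the set, went from 51.1 ± 1.50 to 92 ± 2.75 FPKM and SEC61B from 136 ± 8.46 to 222 ± 13.2 (edgeR on counts, adjusted p = 3.22e-06 and 0.000187).

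**Figure D2:**
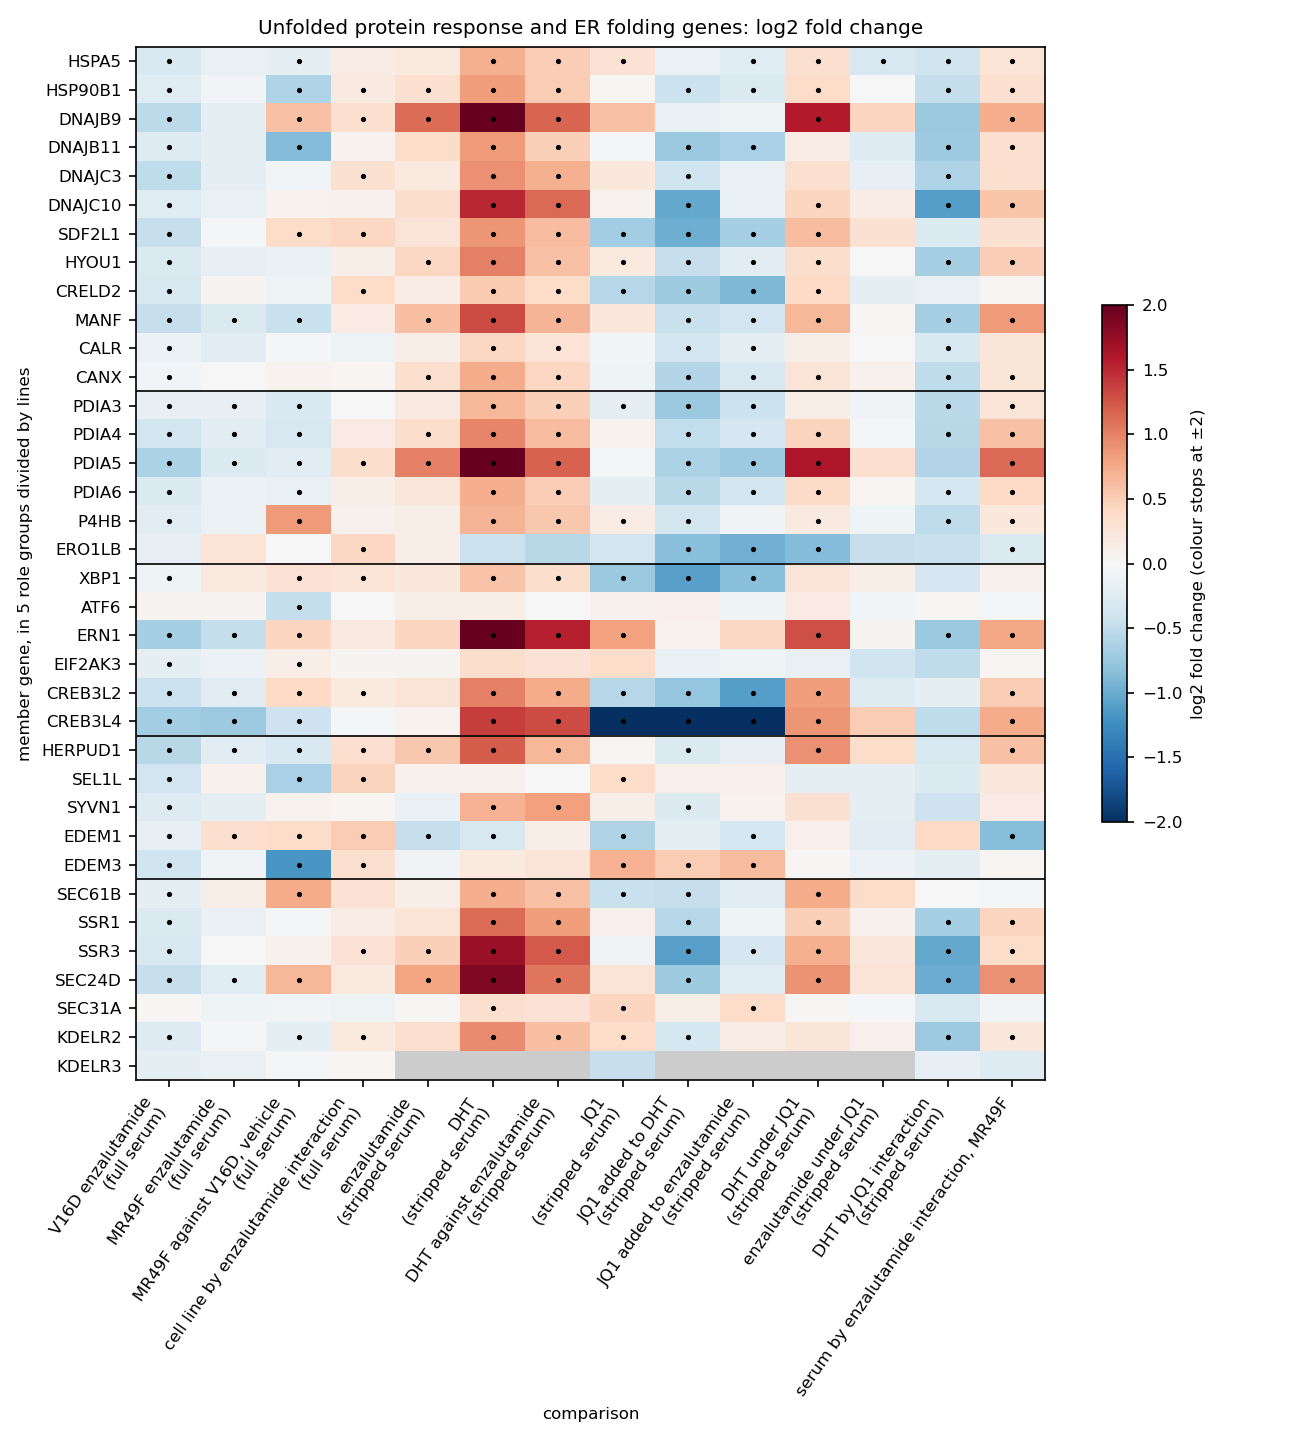
Log2 fold changes of the 36 members (rows, in 5 role groups divided by lines) in the 14 comparisons (columns), red for higher and blue for lower with the colour scale ending at ±2, a black dot where the adjusted p was under 0.05 and grey where a gene was not tested. Values are from edgeR on counts, except for the serum by enzalutamide column, which is limma on log2(FPKM + 1). The DHT column is red for nearly all members and the V16D enzalutamide column is blue for 34 of 36.

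Enzalutamide was compared with vehicle in the same stripped serum, in order to ask whether the drug acts on the module when androgen is scarce. By counts 10 of 35 members rose and 1 fell, where 7.26% of all genes were called, 4.38% higher and 2.87% lower (edgeR). By FPKM 23 of 36 rose and 2 fell, where 38.7% of all genes were called, 19.3% higher and 19.3% lower (limma). The median log2 fold change over the members was 0.23 by counts, against -0.0012 over all genes. The 10 higher genes were HSP90B1, DNAJB9, CANX, MANF, HYOU1, PDIA4, PDIA5, HERPUD1, SEC24D and SSR3, and the lower gene was EDEM1. No sensor or transcription factor passed by counts, and 3 of 6, XBP1, ERN1 and CREB3L2, passed by FPKM. The largest changes were those of DNAJB9, PDIA5 and SEC24D. DNAJB9 had 8.44, 8.02 and 9.45 FPKM with enzalutamide, all above the 5.08 to 5.64 of vehicle (log2 fold change by counts 1.12 ± 0.28, edgeR, adjusted p = 0.0177). PDIA5 had 31.3, 28.3 and 28.6 FPKM with enzalutamide, above every vehicle sample (2.003-fold, log2 fold change 1.002 ± 0.15, edgeR, adjusted p = 0.000208). SEC24D had 9.58, 9.57 and 9.80 FPKM with enzalutamide, again without overlap (1.73-fold, log2 fold change 0.79 ± 0.20, edgeR, adjusted p = 0.017). EDEM1 fell to 25.6, 27.3 and 27.4 FPKM from 38.9, 37.7 and 37.1 (log2 fold change -0.46 ± 0.11, edgeR, adjusted p = 0.0135). By DESeq2 the calls of DNAJB9, SEC24D, CANX, PDIA4, HERPUD1, SSR3 and EDEM1 were lost, leaving 4 members. CREB3L4 stood at 38.1, 38.6 and 35.4 FPKM, within reach of the vehicle samples at 33.2, 36.02 and 36.6, and did not pass by counts (edgeR, adjusted p = 0.836) or FPKM (limma, adjusted p = 0.254). Leaving out vehicle replicate 1 lowered the count of members called from 11 to 3, vehicle replicate 2 to 7, enzalutamide replicate 1 to 6 and enzalutamide replicate 2 to 6.

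Set directly against each other in stripped serum, DHT gave higher levels than enzalutamide for 28 of 35 members and lower levels for 0, where 19.4% of all genes were called, 10.3% higher and 9.13% lower (edgeR). The median log2 difference was 0.58 over the members and -0.019 over all genes, and by FPKM 32 members were higher and 2, SEL1L and ERO1LB, were lower (limma), where 57.4% of all genes were called. ERN1 was at 4.99, 4.97 and 5.50 FPKM with enzalutamide, between its vehicle samples and its DHT samples without touching either (2.94-fold higher with DHT, log2 difference 1.56 ± 0.16, edgeR, adjusted p = 4.72e-07). CREB3L4, which enzalutamide had not moved past the test, was 2.46-fold higher with DHT (log2 difference 1.30 ± 0.11, edgeR, adjusted p = 1.64e-08). SSR3 was at 51.9, 52.2 and 53.6 FPKM with enzalutamide, below every DHT sample (2.35-fold higher with DHT, log2 difference 1.23 ± 0.11, edgeR, adjusted p = 4.37e-08). All 12 chaperones, 5 of 6 disulfide enzymes and 5 of 6 tested transport genes were higher with DHT. EDEM1, lower than vehicle with both agents, did not pass between them (log2 difference 0.14 ± 0.12, edgeR, adjusted p = 0.452). The 3 comparisons share samples and are not independent of each other.

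In full serum, enzalutamide lowered most of the module in the parental V16D cells: 32 of 36 members fell and 0 rose, where 37.5% of all 14079 genes were called, 18.2% higher and 19.3% lower (edgeR). By FPKM 29 fell and 0 rose, where 30.4% of all genes were called (limma). The steps were small, with a median log2 fold change of -0.28 over the members and 0.0038 over all genes, and a largest change of -0.70. CREB3L4 had 72.8, 70.2 and 73.8 FPKM with vehicle and 45.03, 44.98 and 46.5 with enzalutamide (log2 fold change -0.70 ± 0.033, edgeR, adjusted p = 7.55e-77). ERN1 had 4.44, 4.74 and 4.48 FPKM with vehicle and 2.93, 3.03 and 2.81 with enzalutamide (log2 fold change -0.66 ± 0.069, edgeR, adjusted p = 1.56e-19). PDIA5 had 41.4, 41.1 and 41.5 FPKM with vehicle and 27.5, 27.9 and 26.6 with enzalutamide (log2 fold change -0.63 ± 0.038, edgeR, adjusted p = 1.31e-50). No enzalutamide sample of these 3 genes reached a vehicle sample. All 12 chaperones, all 5 degradation genes, 5 of 6 disulfide enzymes, 5 of 6 sensors and factors and 5 of 7 transport genes fell. HERPUD1 fell to 0.682 times its vehicle level (edgeR, adjusted p = 6.59e-51), DNAJC3, the co-chaperone that inhibits PERK, to 0.702 times (edgeR, adjusted p = 4.31e-40), and HSPA5 to 0.811 times (edgeR, adjusted p = 6.04e-38). The 4 members that did not pass were ATF6, SEC31A, KDELR3 and ERO1LB, with log2 fold changes of 0.047, 0.016, -0.19 and -0.16. CALR, CANX and XBP1 passed by counts with changes of -0.11, -0.058 and -0.084 and not by FPKM.

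In MR49F cells in full serum the same drug raised 1 and lowered 9 of 36 members, where 8.48% of all genes were called, 3.86% higher and 4.62% lower (edgeR). The median log2 fold change was -0.13 over the members and 0.0095 over all genes. Variation between samples beyond counting error was estimated at 5.25% in this fit and 1.83% in that of V16D. A change of the same size could therefore pass more easily in V16D, and the 2 counts of calls are not like for like. With 1 fit over all 4 groups of full serum, 3 members were higher and 19 lower in MR49F, and 0 higher and 28 lower in V16D (edgeR). The 9 lower genes were CREB3L4, ERN1, CREB3L2, PDIA3, PDIA4, PDIA5, MANF, HERPUD1 and SEC24D, of which CREB3L4, ERN1 and PDIA5 also passed by FPKM, and by FPKM 0 rose, where 4.6% of all genes were called (limma). CREB3L4 had 50.1, 55.5 and 56.04 FPKM with vehicle and 35.9, 32.9 and 32.8 with enzalutamide, without overlap (log2 fold change -0.73 ± 0.053, edgeR, adjusted p = 1.68e-05). ERN1 had 6.35, 6.24 and 5.97 FPKM with vehicle and 4.53, 4.42 and 4.85 with enzalutamide (log2 fold change -0.47 ± 0.064, edgeR, adjusted p = 0.00118). EDEM1 was the gene that rose, with 20.6, 23.8 and 25.2 FPKM with vehicle and 29.5, 30.1 and 31 with enzalutamide (log2 fold change 0.34 ± 0.057, edgeR, adjusted p = 0.00433, and limma on FPKM, adjusted p = 0.0514). Its lowest enzalutamide sample lay above its highest vehicle sample, and vehicle replicate 1 was the lowest of the 6. The count of members called depended on single libraries, at 21 (3 higher and 18 lower) without vehicle replicate 1, 6 without vehicle replicate 2, 5 without enzalutamide replicate 1, and 3 without enzalutamide replicate 2 or without enzalutamide replicate 3, against 10 with all samples.

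**Figure D3:**
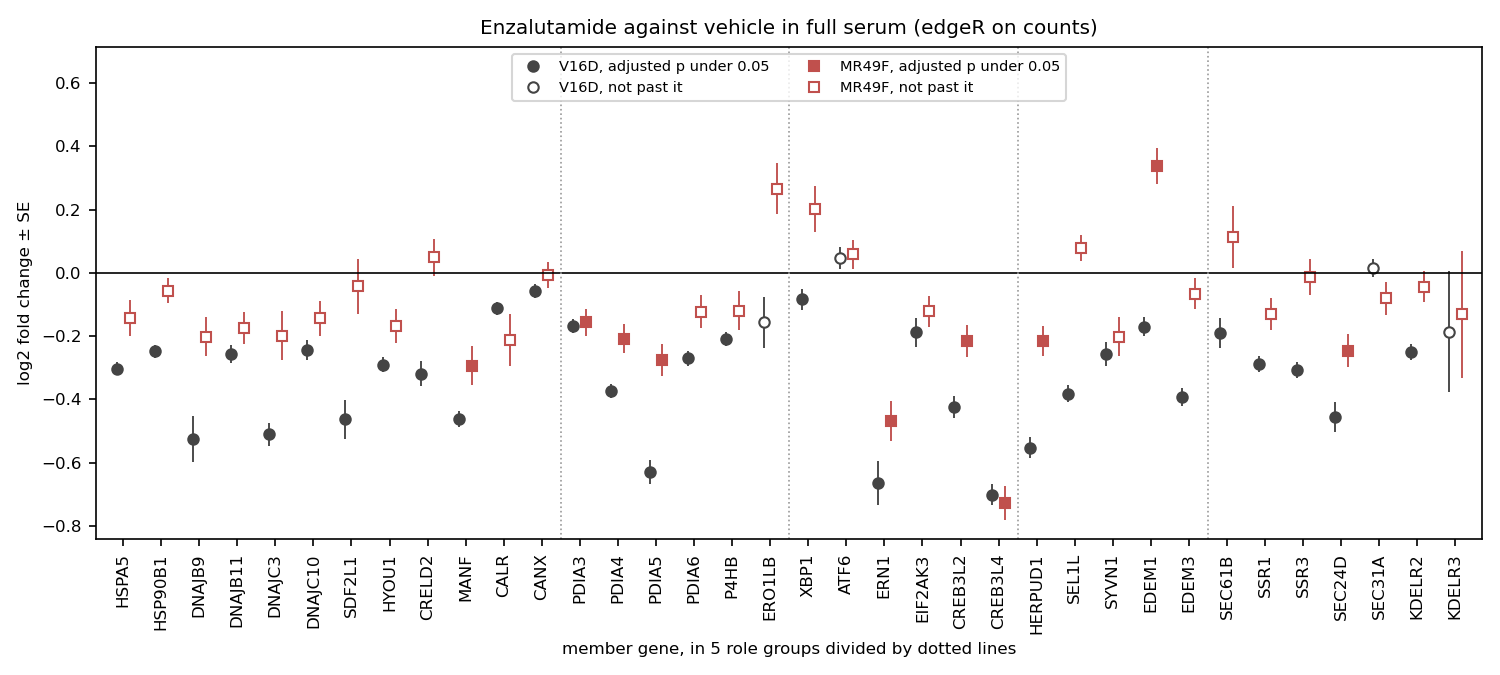
Log2 fold change ± SE (edgeR on counts, vertical axis) of the 36 members with enzalutamide against vehicle in full serum, for V16D (dark circles) and MR49F (red squares), filled where the adjusted p was under 0.05, with role groups divided by dotted lines. The V16D circles lie below 0 for 34 of 36 members, CREB3L4 and ERN1 are low in both lines, and EDEM1 is the filled square above 0.

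The difference between the lines was tested itself, as the interaction of line and drug. Earlier upkeep in enzalutamide is stated for MR49F cells only, so that line and earlier exposure cannot be told apart. The enzalutamide effect was higher (less negative or positive) in MR49F than in V16D for 15 of 36 members and lower for 0, where 6.95% of all genes were called, 4.19% higher and 2.76% lower (edgeR). By FPKM it was 9 members and 0 (limma), where 6.06% of all genes were called, 3.65% higher and 2.41% lower. EDEM1 differed most, falling by 0.17 on the log2 scale in V16D and rising by 0.34 in MR49F (interaction 0.50 ± 0.065, edgeR, adjusted p = 1.93e-05). SEL1L had 26.2, 26 and 26.7 FPKM with vehicle and 20.2, 21.5 and 20.8 with enzalutamide in V16D, and 22.5, 17.7 and 17.4 with vehicle and 18.7, 18.6 and 18.8 with enzalutamide in MR49F. The V16D groups were apart, while the MR49F vehicle samples were spread around the enzalutamide samples with vehicle replicate 1 the highest (interaction 0.45 ± 0.048 by counts, edgeR, adjusted p = 1.54e-06, and 0.29 by FPKM, limma, adjusted p = 0.168). ERO1LB had 2.37, 2.12 and 2.19 FPKM with vehicle and 2.08, 2.24 and 1.84 with enzalutamide in V16D, and 2.18, 2.12 and 2.40 and 2.51, 2.79 and 2.92 in MR49F. Its V16D groups overlapped and its MR49F enzalutamide samples lay above the vehicle samples (interaction 0.42 ± 0.12, edgeR, adjusted p = 0.0337, and limma on FPKM, adjusted p = 0.0965). By role, the effect differed for 5 of 12 chaperones, 2 of 6 disulfide enzymes, 2 of 6 sensors and factors, 4 of 5 degradation genes and 2 of 7 transport genes. CREB3L4 and PDIA3 had interactions of -0.036 and 0.002 and did not pass (edgeR, adjusted p = 0.827 and 0.991). The count of members called was 23 without MR49F vehicle replicate 1, 9 without MR49F enzalutamide replicate 2, V16D enzalutamide replicate 1, V16D vehicle replicate 2 or V16D vehicle replicate 3, and 8 without MR49F enzalutamide replicate 3, V16D enzalutamide replicate 3 or V16D vehicle replicate 1.

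Between the lines given vehicle in full serum the module had no common direction, and line and earlier enzalutamide exposure cannot be told apart here. MR49F was higher than V16D for 10 members and lower for 14, where 63.7% of all genes were called, 31.9% higher and 31.8% lower (edgeR, and 9 and 15 by limma on FPKM, where 62.6% were called), so that the members' share of 24 of 36 stood beside a background of nearly the same size. EDEM3, a mannosidase that marks glycoproteins for degradation, had 22.5, 22.7 and 23.4 FPKM in V16D and 9.54, 10.3 and 10.9 in MR49F (log2 difference -1.16 ± 0.048, edgeR, adjusted p = 3.03e-09). DNAJB11, a J-domain co-chaperone of BiP, had 102, 100.1 and 102 FPKM in V16D and 56.6, 55.1 and 55.2 in MR49F (log2 difference -0.86 ± 0.048, edgeR, adjusted p = 3.31e-08). P4HB went the other way, with 276, 278 and 274 FPKM in V16D and 537, 481 and 473 in MR49F (log2 difference 0.85 ± 0.063, edgeR, adjusted p = 3.15e-07). The samples of the 2 lines were apart for all 3 genes. Among the sensors and factors, ERN1 (0.43), CREB3L2 (0.40), XBP1 (0.28) and EIF2AK3 (0.13) were higher in MR49F by counts, and ATF6 (-0.47) and CREB3L4 (-0.42) were lower. The XBP1 difference did not pass by FPKM (limma, adjusted p = 0.0619). SEC24D (1.58-fold, edgeR, adjusted p = 4.75e-07) and SEC61B, a translocon subunit (1.68-fold, edgeR, adjusted p = 3.83e-05), were higher in MR49F.

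The serum by enzalutamide comparison asked whether the drug acts on MR49F cells differently in stripped and in full serum, and was made on FPKM, since the counts of the 2 sera differ in depth and in the share of reads on genes. The effect was higher in stripped serum for 21 of 36 members and lower for 2, EDEM1 and ERO1LB, where 34.1% of all genes were called, 14.9% higher and 19.1% lower (limma). The median over the members was 0.28, against -0.055 over all genes. By counts 20 members were higher and 1 lower, where 11.4% of all genes were called (edgeR). PDIA5 had 36.8, 36.6 and 34.9 FPKM with vehicle and 31.2, 29.4 and 30.8 with enzalutamide in full serum, against 15.6, 15.4 and 14.99 and 31.3, 28.3 and 28.6 in stripped serum. It thus fell in one serum and rose in the other, without overlap in either (interaction 1.14 ± 0.061 in log2(FPKM + 1), limma, adjusted p = 3.72e-07). SEC24D had 14.8, 15.2 and 15.7 FPKM with vehicle and 13.99, 12.7 and 13 with enzalutamide in full serum, and rose in stripped serum as described above (interaction 0.91 ± 0.071, limma, adjusted p = 6.04e-06). EDEM1 had the mirror image, higher with the drug in full serum and lower in stripped serum (interaction -0.85 ± 0.088, limma, adjusted p = 4.06e-05). MANF (0.84), ERN1 (0.77), CREB3L4 (0.74) and DNAJB9 (0.73) followed PDIA5 and SEC24D in size among the positive interactions. CREB3L4 fell in full serum and did not pass in stripped serum.

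**Figure D4:**
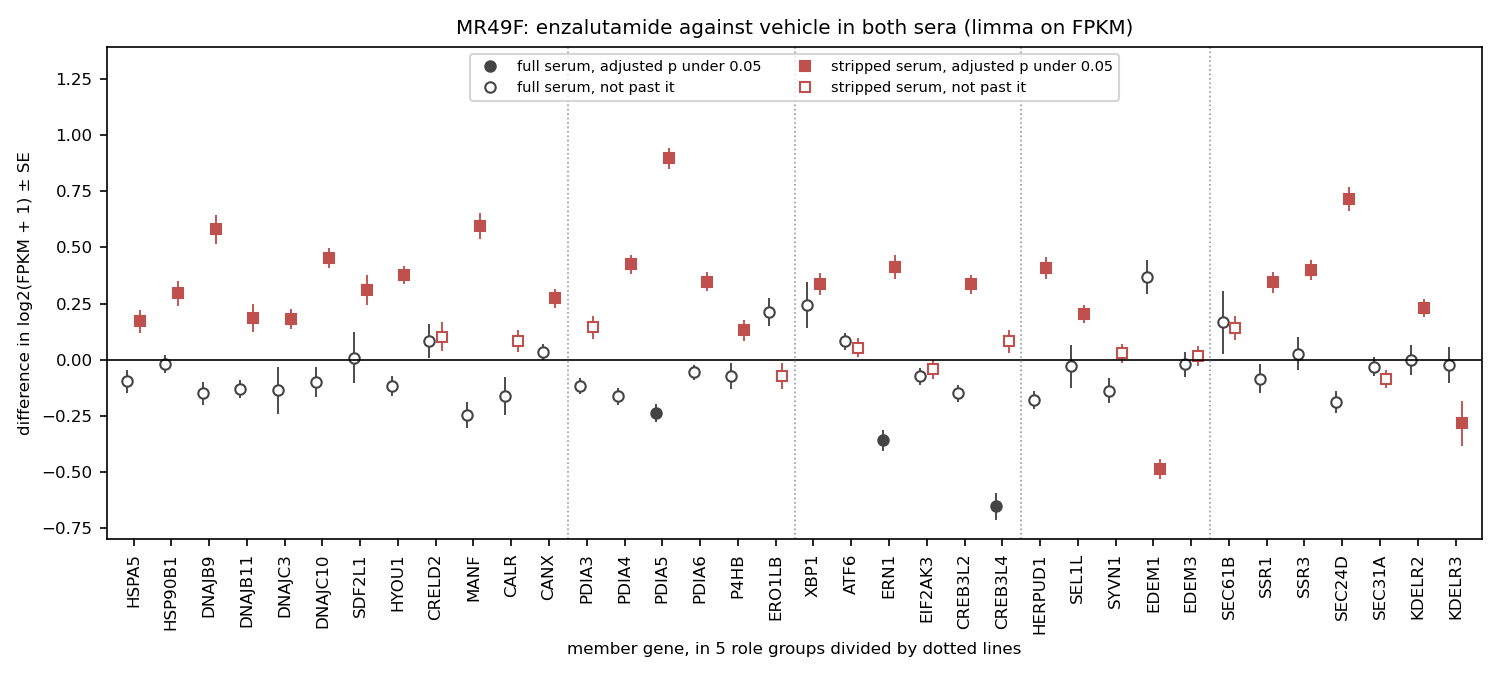
Difference in log2(FPKM + 1) ± SE (limma, vertical axis) of the 36 members with enzalutamide against vehicle in MR49F cells, in full serum (dark circles) and stripped serum (red squares), filled where the adjusted p was under 0.05, with role groups divided by dotted lines. PDIA5 lies at -0.24 in full serum and 0.90 in stripped serum, and EDEM1 at 0.37 and -0.49.

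JQ1 was added in stripped serum to test whether BET bromodomain inhibition interferes with the action of DHT and enzalutamide. Given alone, it raised 8 of 36 members and lowered 8, where 46.6% of all genes were called, 22.8% higher and 23.9% lower (edgeR), and the members' median log2 fold change was 0.053, against -0.0029 over all genes. By FPKM 11 rose and 17 fell, where 75.1% of all genes were called, 32.5% higher and 42.6% lower (limma). CREB3L4 fell from 33.2, 36.02 and 36.6 FPKM in vehicle samples to 4.22, 3.97 and 4.57 with JQ1, the largest change of any member (0.158 times the vehicle level, log2 fold change -2.66 ± 0.18, edgeR, adjusted p = 6.24e-17). XBP1 fell from 53.2, 54.4 and 49.5 FPKM to 29.1, 28.04 and 29.1 (log2 fold change -0.75 ± 0.12, edgeR, adjusted p = 1.54e-06). ERN1, the kinase that splices XBP1, rose from 3.72, 3.57 and 3.56 FPKM to 5.86, 5.66 and 6.41 (log2 fold change 0.80 ± 0.20, edgeR, adjusted p = 0.00087). The JQ1 samples of all 3 genes lay outside the vehicle range. EDEM1 (-0.60), CRELD2 (-0.57), CREB3L2 (-0.57), SDF2L1 (-0.70), SEC61B (-0.45) and PDIA3 (-0.20) also fell on the log2 scale. EDEM3 (0.69), SEC31A (0.43), SEL1L (0.37), KDELR2 (0.37), HSPA5 (0.29), HYOU1 (0.20) and P4HB (0.14) rose. KDELR2 and P4HB did not pass by FPKM.

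Added to DHT, JQ1 lowered 26 of 35 members and raised 1, EDEM3, where 54.7% of all genes were called, 26.7% higher and 28% lower (edgeR). The median was -0.45 on the log2 scale, against -0.00069 over all genes, and by FPKM 31 fell and 2 rose, where 78.8% of all genes were called (limma). CREB3L4 went from 90.5, 88.8 and 92.9 FPKM with DHT to 8.09, 8.41 and 7.15 with DHT and JQ1 (0.111 times, log2 fold change -3.17 ± 0.13, edgeR, adjusted p = 1.10e-21). SSR3 went from 122, 115 and 112 FPKM to 53.1, 53.5 and 51.04 (log2 fold change -1.09 ± 0.099, edgeR, adjusted p = 1.31e-11). XBP1 went from 79.2, 75.4 and 75 FPKM to 33.8, 32.96 and 31.4 (log2 fold change -1.08 ± 0.11, edgeR, adjusted p = 3.71e-10). No sample with JQ1 reached a sample without it for these genes. All 6 disulfide enzymes, 10 of 12 chaperones and 5 of 6 tested transport genes fell. HSPA5 and DNAJB9 were the 2 chaperones that did not pass by counts (-0.11 and -0.14, edgeR, adjusted p = 0.16 and 0.501). By FPKM both did (limma, adjusted p = 0.000928 and 0.00169). ERN1 did not fall, with 14.7, 14.8 and 15.2 FPKM with DHT and JQ1 against 12.5, 11.7 and 12.4 with DHT (edgeR, adjusted p = 0.662, and higher by FPKM, limma, adjusted p = 0.000344).

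Added to enzalutamide, JQ1 lowered 19 of 35 members and raised 2, EDEM3 and SEC31A, where 45.1% of all genes were called, 22% higher and 23.2% lower (edgeR). By FPKM 29 fell and 3 rose, where 75.7% of all genes were called (limma). CREB3L4 went from 38.1, 38.6 and 35.4 FPKM with enzalutamide to 4.18, 3.71 and 3.73 with both (log2 fold change -2.23 ± 0.18, edgeR, adjusted p = 1.73e-10). CREB3L2 went from 14.2, 13.6 and 13.8 FPKM to 6.99, 7.48 and 7.69 (log2 fold change -1.10 ± 0.15, edgeR, adjusted p = 6.92e-07). ERO1LB went from 3.04, 3.25 and 3.19 FPKM to 2.17, 2.46 and 2.32 (log2 fold change -0.97 ± 0.29, edgeR, adjusted p = 0.00851). By FPKM the ERO1LB difference was smaller, at -0.33 ± 0.059 in log2(FPKM + 1) (limma, adjusted p = 0.000757), and by DESeq2 its call was lost. The samples with and without JQ1 did not overlap for any of the 3. The median over the members was -0.24 on the log2 scale, against -0.0036 over all genes.

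With JQ1 present, DHT still raised a part of the module. Compared with JQ1 alone, DHT with JQ1 was higher for 21 of 35 members and lower for 1, ERO1LB, where 22.1% of all genes were called, 12.3% higher and 9.83% lower (edgeR), with a median of 0.36 over the members and -0.0025 over all genes. The ERO1LB call by counts was lost by DESeq2 and in the fit over all groups of stripped serum. It was also lost without JQ1 replicate 1 or 3, or without DHT with JQ1 replicate 1 or 2. By FPKM 24 were higher and 2 lower, where 53.3% of all genes were called (limma). PDIA5 had 13.1, 12.8 and 12.8 FPKM with JQ1 and 37.4, 39.8 and 39.9 with DHT and JQ1 (3.06-fold, log2 fold change 1.61 ± 0.14, edgeR, adjusted p = 7.18e-15). DNAJB9 had 6.49, 6.26 and 6.07 FPKM with JQ1 and 15.3, 14.6 and 12.8 with both (log2 fold change 1.58 ± 0.21, edgeR, adjusted p = 1.94e-08). ERN1 had 5.86, 5.66 and 6.41 FPKM with JQ1 and 14.7, 14.8 and 15.2 with both (log2 fold change 1.29 ± 0.13, edgeR, adjusted p = 6.99e-12). The groups were apart for all 3 genes, and ERN1 with DHT and JQ1 was the highest of the 6 groups in stripped serum. HERPUD1 rose 1.89-fold (edgeR, adjusted p = 6.52e-09).

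**Figure D5:**
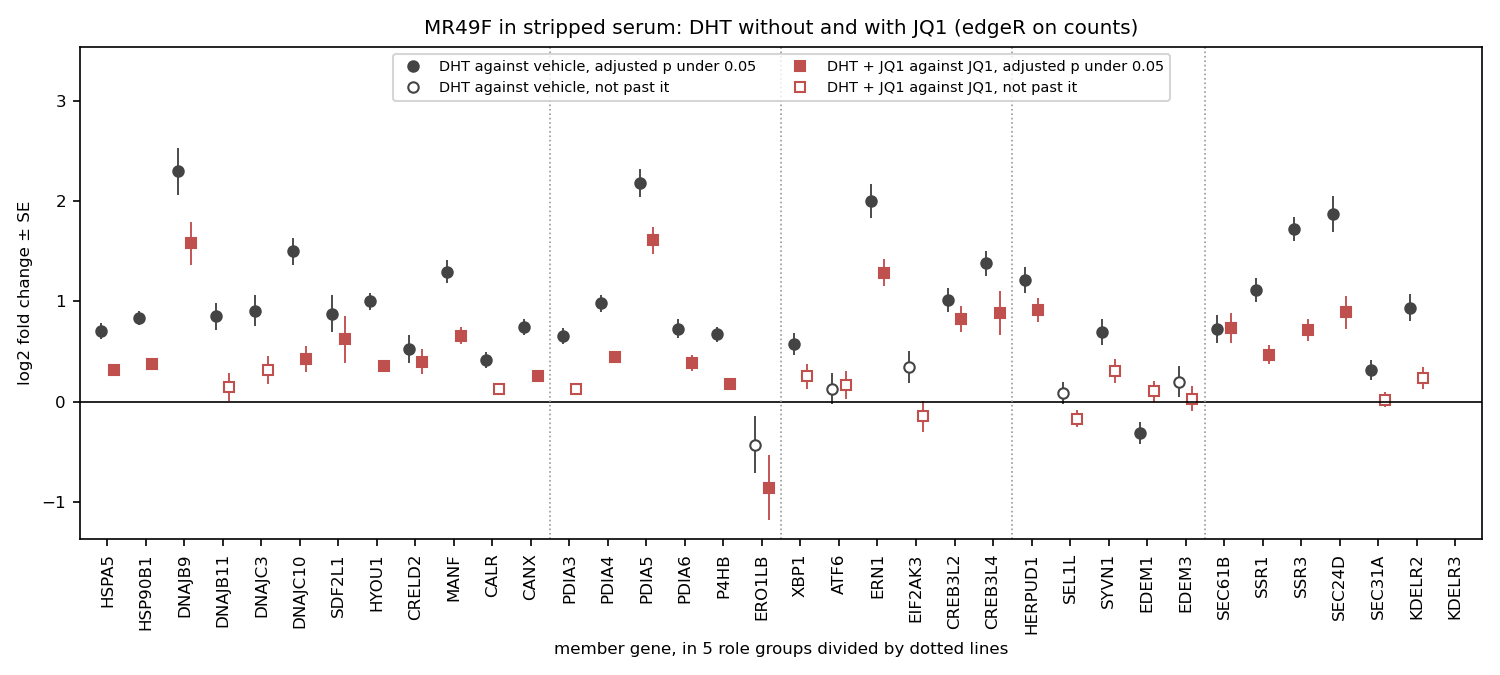
Log2 fold change ± SE (edgeR on counts, vertical axis) of the members in stripped serum MR49F cells with DHT against vehicle (dark circles) and with DHT and JQ1 against JQ1 alone (red squares), filled where the adjusted p was under 0.05, with role groups divided by dotted lines. The squares lie below the circles for most members, as for DNAJC10 at 1.50 and 0.42, and KDELR3 has no value.

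Tested itself, the DHT effect was smaller with JQ1 than without it for 18 of 36 members and larger for 0, where 12.3% of all genes were called, 5.79% higher and 6.55% lower (edgeR). The median interaction was -0.49 over the members and 0.0037 over all genes, and by FPKM 31 were lower and 1, EDEM1, was higher, where 48% of all genes were called (limma). DNAJC10 rose 2.83-fold with DHT alone and 1.34-fold with JQ1 present (interaction -1.09 ± 0.18, edgeR, adjusted p = 2.60e-05). Its FPKM were 9.40, 8.88 and 9.13 with JQ1 and 13.1, 13.8 and 13.1 with DHT and JQ1. SSR3 had 34.8, 32.9 and 31.9 FPKM with JQ1 and 53.1, 53.5 and 51.04 with both (interaction -1.02 ± 0.16, edgeR, adjusted p = 1.19e-05). SEC24D had 7.52, 7.24 and 6.95 FPKM with JQ1 and 11.2, 10.96 and 11.2 with both (interaction -0.998 ± 0.25, edgeR, adjusted p = 0.00463). DHT raised all 3 genes on either background, by smaller steps with JQ1. Of the role groups, 9 of 12 chaperones, 4 of 6 disulfide enzymes, 4 of 7 transport genes, 1 of 6 sensors and factors (ERN1) and 0 of 5 degradation genes had a smaller DHT effect. HERPUD1 (interaction -0.31 by counts, edgeR, adjusted p = 0.288, and 0.0044 by FPKM, limma, adjusted p = 0.964) did not pass on either scale. PDIA5 had an interaction of -0.59 by counts (edgeR, adjusted p = 0.0512) and -0.43 by FPKM (limma, adjusted p = 1.66e-05).

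Enzalutamide, by contrast with its 10 higher members in stripped serum alone, left 1 of 35 members past the test when JQ1 was present, where 4.5% of all genes were called, 3.16% higher and 1.34% lower (edgeR). By FPKM 3 rose (DNAJC10, PDIA5 and HERPUD1) and 3 fell (HSPA5, SYVN1 and SEC31A), where 15.9% of all genes were called (limma). HSPA5 was the member called by counts, and it was lower, with 156, 158 and 160.2 FPKM with JQ1 and 132, 132 and 129.7 with enzalutamide and JQ1 (log2 fold change -0.32 ± 0.053, edgeR, adjusted p = 3.85e-07). All 3 samples with both drugs lay below all 3 with JQ1. Whether the enzalutamide effect itself differed with and without JQ1 was not tested.

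The other genes of the pathway, in lists that hold none of the 36, gave the following counts with DHT in stripped serum (edgeR, background 37.5% called as above). Of 22 tested folding enzymes and chaperones 13 rose and 1 fell, with CLGN, a calnexin relative, at 53.8 ± 12.7 CPM with vehicle and 340 ± 35.8 with DHT (SD of 3 samples, log2 fold change 2.68 ± 0.13, edgeR, adjusted p = 2.09e-14) and PRDX4, an ER peroxiredoxin, rising by 1.07 on the log2 scale (edgeR, adjusted p = 3.96e-06). Of 22 genes of the translocon, signal peptidase and oligosaccharyltransferase 15 rose and 0 fell, with SPCS3 at 1.44 (edgeR, adjusted p = 7.98e-08) and RPN1, a subunit of the oligosaccharyltransferase, at 1.10 (adjusted p = 8.44e-10). Of 26 genes of COPII, COPI and cargo receptors 20 rose and 1 fell, with the COPII subunit SEC24B at 1.15 (edgeR, adjusted p = 5.76e-06) and the cargo receptor LMAN1 at 1.08 (adjusted p = 1.38e-09). Of 17 other degradation genes 7 rose and 2 fell, with UBE2J1, a ubiquitin-conjugating enzyme of the ER, at 1.67 (edgeR, adjusted p = 9.96e-08) and DERL3, a retrotranslocation factor, at 2.11 (adjusted p = 0.00036). DERL3 lay near the floor of the counts, at 2.28 ± 0.162 CPM with vehicle and 10.2 ± 2.11 with DHT. Of 6 tested of the 10 other sensors, CREB3 relatives and site proteases 0 passed in either direction, with a median of 0.037. By FPKM with DHT, 17 rose and 3 fell of 23 folding enzymes, 19 rose and 3 fell of 22 translocon genes, 23 rose and 2 fell of 26 transport genes, 12 rose and 5 fell of 18 degradation genes, and 2 rose and 0 fell of 7 other sensors (limma, background 72.1% called, 28.9% higher and 43.2% lower). The named genes rose by less on that scale, in log2(FPKM + 1) by 2.23 for CLGN, 0.83 for PRDX4, 1.07 for SPCS3 and 0.93 for RPN1. SEC24B rose by 0.84, LMAN1 by 0.89, UBE2J1 by 1.28 and DERL3 by 1.21. With enzalutamide in V16D cells, 2 of 23 folding enzymes rose and 13 fell (edgeR, background 37.5% called, 18.2% higher and 19.3% lower). In the same comparison 0 rose and 16 fell of 22 translocon and oligosaccharyltransferase genes, 0 rose and 19 fell of 26 transport genes, 0 rose and 9 fell of 17 degradation genes, and 0 of 6 tested other sensors passed in either direction. CLGN fell by 1.07 on the log2 scale (edgeR, adjusted p = 3.41e-152).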

How the data were processed

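RNA-seq was carried out on 30 samples in 10 groups of 3. The authors aligned strand-specific, single-end reads of 50 bases to hg19 with TopHat2 2.0.9, and the counts deposited per RefSeq symbol were made with HTSeq, whose strand setting is not given in the sources used here. The deposited FPKM were made by the authors with Cufflinks 2.1.1 per transcript and were summed here to genes. CPM are counts per library size, computed here. Genes held 73.0% to 77.8% of uniquely placed reads in full serum libraries and 5.13% to 7.66% in stripped serum libraries. The remaining reads, which at the strand setting of the counting fell on no gene or on more than 1, were left unassigned in the count tables. They stayed out of library sizes and tests.

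Counts were tested with edgeR 4.0.16 (R 4.3.3), with quasi-likelihood fits, TMM scaling, filterByExpr (minimum count 10, total 15), Benjamini-Hochberg adjustment over all genes tested and a threshold of 0.05, on the samples of each comparison. FPKM were tested as log2(FPKM + 1) with limma 3.58.1 on genes at 1 or more in at least 3 samples, which was the main test for the comparison across sera, and fold changes on that scale understate those of low genes. DESeq2 1.42.0, its size factors, other filters, a pseudocount of 0.1, fits over all groups of a serum, a replicate block and leaving out each sample were tried. With 3 samples against 3, an exact permutation test of 1 gene could not go below 0.1. Promoter windows and their sequences are RefSeq's (GRCh38.p14), and exon overlaps used GENCODE 44 placed on hg19.

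The members and lists were chosen with earlier results of these data known. All 36 members may be named, and values in every sample are given for the members of each role group with the largest DHT changes and for the 3 with the largest changes among those called in each other comparison. Of the other lists, the genes named are those with the largest DHT changes among those called. One gene of the marker list is not reported here.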

Additional observations from a re-analysis of the deposited data

Results flagged for a closer look

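The enzalutamide effect in full serum differed between MR49F and V16D cells for 15 members by the test of the interaction itself (edgeR, adjusted p under 0.05), and in each the effect was higher in MR49F. On the log2 scale the differences among chaperones were 0.18 for HSP90B1, 0.32 for DNAJB9, 0.30 for DNAJC3, 0.41 for SDF2L1 and 0.36 for CRELD2. Among disulfide enzymes, sensors and transcription factors they were 0.34 for PDIA5, 0.42 for ERO1LB, 0.28 for XBP1 and 0.20 for CREB3L2. In the degradation group they were 0.33 for HERPUD1, 0.45 for SEL1L, 0.50 for EDEM1 and 0.32 for EDEM3, and in the transport group 0.29 for SSR3 and 0.20 for KDELR2. Of these, HSP90B1, DNAJB9, PDIA5, CREB3L2, HERPUD1, EDEM1 and EDEM3 also passed by FPKM (limma). By counts, the call of CREB3L2 was lost when any sample other than MR49F vehicle replicate 1 was left out. Those of XBP1 and DNAJC3 were lost when any V16D or any MR49F enzalutamide sample was left out. Calls of DNAJB9, KDELR2, ERO1LB, HSP90B1 and SDF2L1 were lost without some single samples. MR49F vehicle replicate 1, which stood apart from its group, entered all of these values, and its part in them was not tested beyond the fit without it, which called 23 members.

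The DHT effect differed with and without JQ1 for 18 members, all with the smaller effect under JQ1 (edgeR). The enzalutamide effect in MR49F cells differed between stripped and full serum for 23 members, 21 higher and 2 lower in stripped serum (limma on FPKM), across experiments that cannot be told apart from serum.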

How the results depend on the processing

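No member called in any of the 14 comparisons took the opposite sign under an alternative with a value. Of 278 calls, counted where each alternative applied, DESeq2 kept 212 and lost 43, its size factors 252 and 3, fits over all groups of a serum 232 and 8, a minimum of 10 counts in every sample 248 and 4, no filter on low counts 248 and 7, FPKM with a pseudocount of 1 233 and 22, and FPKM with a pseudocount of 0.1 256 and 22. The number of members called moved by over 1.5 times in 7 comparisons. By FPKM, with either pseudocount, it was 3 in place of 10 for enzalutamide in MR49F cells in full serum, 9 in place of 15 for the line by enzalutamide interaction, 25 in place of 11 for enzalutamide in stripped serum, 28 in place of 16 for JQ1, 32 in place of 21 for JQ1 added to enzalutamide, 6 in place of 1 for enzalutamide under JQ1, and 32 in place of 18 for the DHT by JQ1 interaction. The fit over all groups gave 22 for enzalutamide in MR49F cells in full serum, and DESeq2 gave 4 for enzalutamide in stripped serum. The cause was not tested.

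Leaving out 1 sample at a time gave 3 (without enzalutamide replicate 2) to 21 (without vehicle replicate 1) members for enzalutamide in MR49F cells in full serum, 8 to 23 for the line by enzalutamide interaction (highest without MR49F vehicle replicate 1), and 3 (without vehicle replicate 1) to 11 for enzalutamide in stripped serum. In the other comparisons it was 31 to 31 for enzalutamide in V16D, 21 to 29 between the lines, 28 to 30 for DHT, 24 to 27 for DHT against enzalutamide, 12 to 16 for JQ1, 23 to 26 for JQ1 added to DHT, 16 to 20 for JQ1 added to enzalutamide, 19 to 22 for DHT under JQ1, 1 to 1 for enzalutamide under JQ1, 15 to 19 for the DHT by JQ1 interaction and 21 to 26 for serum by enzalutamide.

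Same-numbered samples showed little common deviation: their correlations ran from -0.16 to 0.17, 1 of 33 pairs was above 0.1, and in 0 of 11 comparisons were all pairs above it. Counting error lowers such correlations, so that they cannot exclude a batch shared by number. Over all genes, the replicate number as a block gave 763 higher and 560 lower for enzalutamide in stripped serum, against 488 and 320 without it. For DHT against enzalutamide it gave fewer, 897 and 795 against 1125 and 997. With the replicate number as a block, 32 members were called for enzalutamide in V16D, 30 for DHT, 12 for enzalutamide in stripped serum and 25 for DHT against enzalutamide, and of 278 calls 269 held. The libraries from stripped serum, with 982130 to 1813262 reads on genes, limit the counts of low members such as DNAJB9, ERO1LB and KDELR3.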

Other observations

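The targets of the PERK and ATF4 branch, 12 genes that are not among the 36, were counted separately, and the examples that follow, apart from VLDLR and CHAC1, were chosen after their values were seen. With DHT in stripped serum 8 of 12 rose and 0 fell by counts (edgeR, where 37.5% of all genes were called), and 9 rose and 3 fell, DDIT3, SESN2 and PPP1R15A, by FPKM (limma, where 72.1% were called). VLDLR, a lipoprotein receptor, rose by 1.16 and CHAC1, which degrades glutathione, by 0.93 on the log2 scale (edgeR, adjusted p = 4.03e-06 and 0.0148). In log2(FPKM + 1) the differences were 1.16 for VLDLR and 0.74 for CHAC1. DDIT3, the factor CHOP, took opposite signs on the 2 scales, at 0.43 by counts (edgeR, adjusted p = 0.00707) and -0.38 by FPKM (limma, adjusted p = 0.00512). In MR49F vehicle cells it stood at 19.1 CPM in full serum and 83.2 in stripped serum, but at 16.1 and 19.02 FPKM. Its stripped serum counts may thus hold reads of another gene, and a rise of its mRNA with DHT is not shown. Exon overlap on the opposite strand was looked up for the 36 members and for the genes of high counts with an FPKM under 1. It was not looked up for the genes of this branch.

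When JQ1 was present, enzalutamide raised 4 of 11 tested genes of this branch, ATF4, CEBPB, DDIT3 and NUPR1, and lowered 0 (edgeR, where 4.5% of all genes were called), and by FPKM 8 of 12 rose and 0 fell (limma, where 15.9% were called). ATF4, the transcription factor of the branch, had 97.7, 96.4 and 103 FPKM with JQ1 and 132, 135 and 140.2 with enzalutamide and JQ1 (log2 fold change by counts 0.50, edgeR, adjusted p = 5.29e-08). NUPR1, a stress-induced nuclear protein, had 18.7, 17.3 and 20.8 FPKM with JQ1 and 28.9, 30.6 and 33.6 with both (log2 fold change 0.96, edgeR, adjusted p = 8.67e-08). The samples did not overlap for either gene. JQ1 alone raised 4 of the 12 genes, ATF3, ASNS, SESN2 and PPP1R15B, and lowered 5, NUPR1, TRIB3, CHAC1, CEBPB and ATF4 (edgeR, where 46.6% of all genes were called), and by FPKM 6 rose and 5 fell (limma, where 75.1% were called). By counts ATF3, a stress-induced transcription factor, rose by 1.63 (edgeR, adjusted p = 5.13e-08) and ASNS, asparagine synthetase, by 1.08 on the log2 scale (edgeR, adjusted p = 1.10e-11). From vehicle to JQ1, ATF3 went from 4.252 ± 0.1005 to 12.69 ± 0.3427 FPKM and ASNS from 62.23 ± 2.795 to 107.7 ± 3.955 (SD, n = 3). By counts NUPR1 stood at -2.998 on the log2 scale with JQ1 (edgeR, adjusted p = 1.61e-26). Its FPKM went from 142.7 ± 10.89 with vehicle to 18.95 ± 1.779 with JQ1 (SD, n = 3). TRIB3, a pseudokinase induced by ATF4, stood at -1.58 by counts (edgeR, adjusted p = 4.10e-11) and went from 20.1 ± 0.7743 to 7.079 ± 0.4878 FPKM. In stripped serum without JQ1, enzalutamide raised 2 of 12, ATF4 and ASNS, and lowered 0 by counts (edgeR, where 7.26% of all genes were called), and raised 9 and lowered 0 by FPKM (limma, where 38.7% were called), and whether its effect differed with JQ1 was not tested. In full serum, 1 of 12 rose and 5 fell with enzalutamide in V16D cells (edgeR, where 37.5% were called), and MR49F vehicle cells were higher than V16D for 8 of 12 and lower for 2 (edgeR, where 63.7% were called), with NUPR1 at 1.26, DDIT3 at 0.98 and ATF4 at 0.58 on the log2 scale. MR49F vehicle replicate 1 held 295 FPKM of NUPR1 against 218 and 216 in the other samples of its group.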
